A study of Mus musculus with 9 samples.

Results

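The mRNAs of 87 genes for chromatin modifiers and remodellers were followed in C2C12 cells, a mouse myoblast line. They are the genes whose symbols mark them as lysine demethylases (Kdm), histone deacetylases (Hdac), SET domain methyltransferases (Setd, Ezh1, Ezh2), lysine acetyltransferases (Kat), DNA methyltransferases and Tet enzymes, Smarc and Arid proteins or CHD remodellers. They were measured by 128 of the 21789 probe sets with a single gene symbol, and are 87 of 19938 genes so represented. Cells received an siRNA against Cugbp1 (current symbol Celf1), an siRNA against Mbnl1 or a control siRNA. All of them, those with control siRNA included, then received 5 ug/ml actinomycin D, which blocks transcription, and total RNA was taken at 0, 2.5 and 5 h, with 1 Affymetrix array for each of the 9 combinations. The study asked whether these RNA-binding proteins alter mRNA decay.

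Chromatin modifiers add or remove methyl and acetyl groups on histones and DNA, and remodellers use ATP to slide or evict nucleosomes. In myoblasts, deacetylases and the Polycomb methyltransferase Ezh2 are known for holding muscle genes silent, while SWI/SNF complexes and acetyltransferases take part in opening them at differentiation. The mRNAs of many regulatory proteins are known to be short-lived.

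Intensities are given on the linear scale of RMA, a summary that brings arrays to a common distribution, so each value is relative to the other transcripts. A gene was represented by its brightest probe set, and tested where its mean log2 intensity reached 7.38, the 50th percentile of probe sets with a single symbol. This held for 74 of the 87 genes and for 9864 genes in all. A gene was called at a limma adjusted p under 0.05 over all 9864. The arrays were alike, with medians from 104.9 to 113.0 and pairwise correlations from 0.980 to 0.995. The labels do not say that arrays came from separate cultures, so p-values measure an effect against the variation of siRNA with time that the model leaves out. In bulk RNA, fewer cells of a kind and less RNA per cell cannot be told apart. Against control siRNA, Celf1 mRNA was lower under Cugbp1 siRNA, with a log2 difference of −2.03 ± 0.09 (SE), and the difference of Mbnl1 mRNA was −2.43 ± 0.09 under Mbnl1 siRNA. Under Mbnl1 siRNA, Celf1 mRNA was also lower (−0.59 ± 0.09). All 6 listed myoblast markers passed the filter, while Ptprc, Adgre1, Csf1r and Itgam of leukocytes, Adipoq, Fabp4 and Plin1 of adipocytes, and the endothelial Pecam1, Cdh5 and Kdr lay below it. Cd68 and Pparg, of the leukocyte and adipocyte lists, passed it. Of 6 listed genes of differentiated muscle, Ckm, Acta1, Tnnt3 and Tnni1 passed and Myog and Myh3 did not.

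Most chromatin genes lost mRNA relative to other transcripts once transcription was blocked. At 5 h 46 of 74 had fallen, or 62.2%, and 32.8% of all genes tested had. Rises were seen for 11, or 14.9%, and for 35.6% of all genes tested. The median change was −0.27 log2 over the 74 genes and 0.04 over all genes. All 46 went down in each of the 3 siRNA arms. Leaving out each array in turn kept 43 of the 46 falls throughout (not Chd4, Chd6 and Kdm3b) and 7 of the 11 rises. RMA fixes the distribution of each array, so a second scale was used: when every array was set to the same median of 52 ribosomal protein genes, the median of all genes moved by −0.23 at 5 h and by −0.11 at 2.5 h. On that scale the 46 stayed called as lower, the count of falls became 60 (59.4% of all genes), and no chromatin gene was called as higher (2.85% of all genes). A fall of more than 1 log2 unit was seen for 8 of the 74 genes and for 5.49% of all genes tested.

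**Figure D1:**
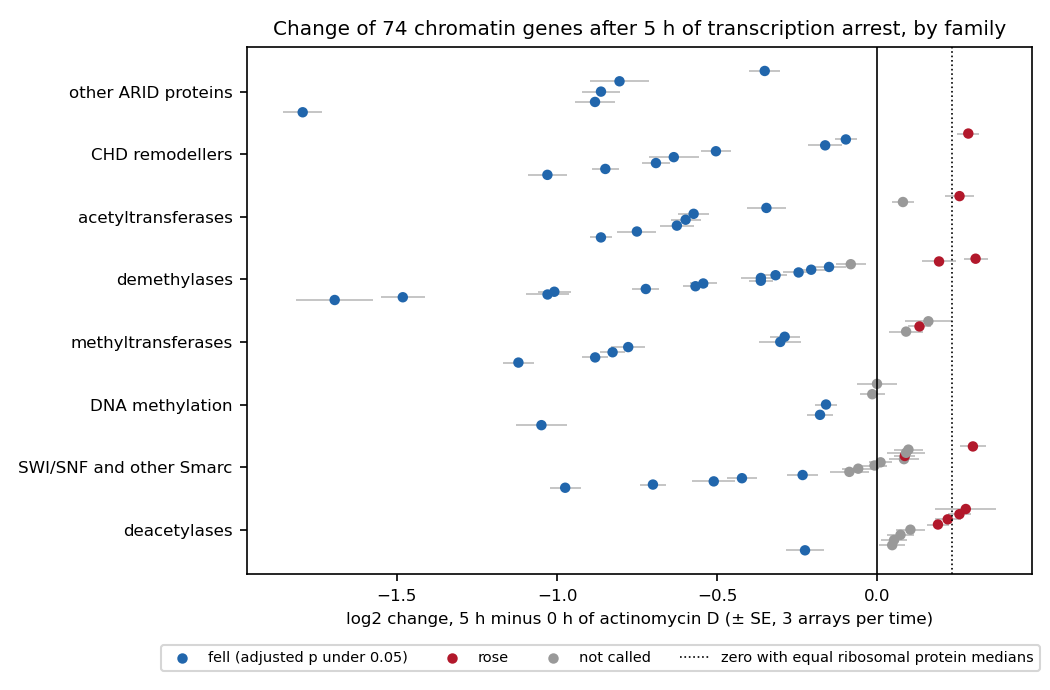
Log2 change from 0 to 5 h of actinomycin D (horizontal axis) for the 74 tested genes, 1 point each, in 8 families (vertical axis); bars are SE over 3 arrays per time. Blue points fell, red points rose and grey points were not called; the dotted line marks zero with equal ribosomal protein medians, at which all of the rises among the deacetylases and the other families lose their call.

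Falls were counted by family. All 5 tested ARID proteins outside SWI/SNF fell at 5 h (median −0.86), as did 7 of 8 CHD remodellers (−0.57), 6 of 8 acetyltransferases (−0.59), 13 of 16 demethylases (−0.36) and 6 of 9 SET domain methyltransferases (−0.30). Of the 5 DNA methylation enzymes 3 fell (−0.16), and of 14 SWI/SNF and other Smarc genes 5 did (−0.03), a share of 35.7% that is near the 32.8% of all genes. Deacetylases stood at the other end: 4 of 9 rose, 1 fell and the median was 0.10. Their share of rises was 44.4%, near the 35.6% of all genes, and none was called as higher on the second scale. With equal ribosomal protein medians, where 59.4% of all genes fell, the falls were 12 of 14 SWI/SNF and other Smarc genes (median −0.27), 5 of 5 DNA methylation enzymes (−0.39) and 4 of 9 deacetylases (−0.13). On that scale they were 5 of 5 other ARID proteins, 7 of 8 CHD remodellers, 7 of 8 acetyltransferases, 14 of 16 demethylases and 6 of 9 methyltransferases. The counts of families were not tested against one another.

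Arid5b, Kdm5b and Kdm6a showed the largest falls among the 74 genes. Arid5b, an ARID protein that recruits the demethylase Phf2, had 3365, 1088 and 881 units at 0, 2.5 and 5 h under Cugbp1 siRNA, 3442, 1296 and 1128 under Mbnl1 siRNA, and 3091, 996 and 863 under control siRNA. In each arm the 0 h array was the highest, and no later array came near it. The change at 5 h was 3.47-fold, or −1.79 ± 0.06 log2 (SE, 3 arrays per time, limma adjusted p = 2.97e-07), and most of it was present at 2.5 h (−1.56 ± 0.06, adjusted p = 1.73e-06). Its relative Arid5a, an ARID protein also known as an RNA-binding stabiliser of cytokine mRNAs, fell by 0.86 at 2.5 h and stayed there, with a further change of 0.00 ± 0.06 from 2.5 to 5 h (adjusted p = 0.988).

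Kdm5b, a demethylase of trimethylated H3K4, had 447, 163 and 162 units under Cugbp1 siRNA, 609, 241 and 157 under Mbnl1 siRNA and 339, 167 and 107 under control siRNA at the 3 times. It fell by 1.69 ± 0.12 log2 at 5 h (adjusted p = 9.33e-06), and its mean of 7.13 at 5 h lay under the filter value, so that the size rests on dim signal.

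The paralogues Kdm6a and Kdm6b, which both remove the Polycomb mark from H3K27, were both called as lower at 2.5 h, and Kdm6a again from 2.5 to 5 h. Kdm6a had 1296, 631 and 445 units at 0, 2.5 and 5 h under Cugbp1 siRNA, 1293, 728 and 427 under Mbnl1 siRNA and 1146, 673 and 463 under control siRNA. Kdm6b had 1158, 589 and 582 under Cugbp1 siRNA, 1268, 662 and 585 under Mbnl1 siRNA and 1153, 674 and 611 under control siRNA. At 2.5 h the change was −0.88 ± 0.07 for Kdm6a and −0.90 ± 0.05 for Kdm6b. From 2.5 to 5 h Kdm6a changed by a further −0.60 ± 0.07 (adjusted p = 0.000967), while Kdm6b differed by −0.11 ± 0.05 (adjusted p = 0.161). With equal ribosomal protein medians the later change of Kdm6b was −0.24 and passed the test. The difference between the 2 genes was not tested.

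**Figure D2:**
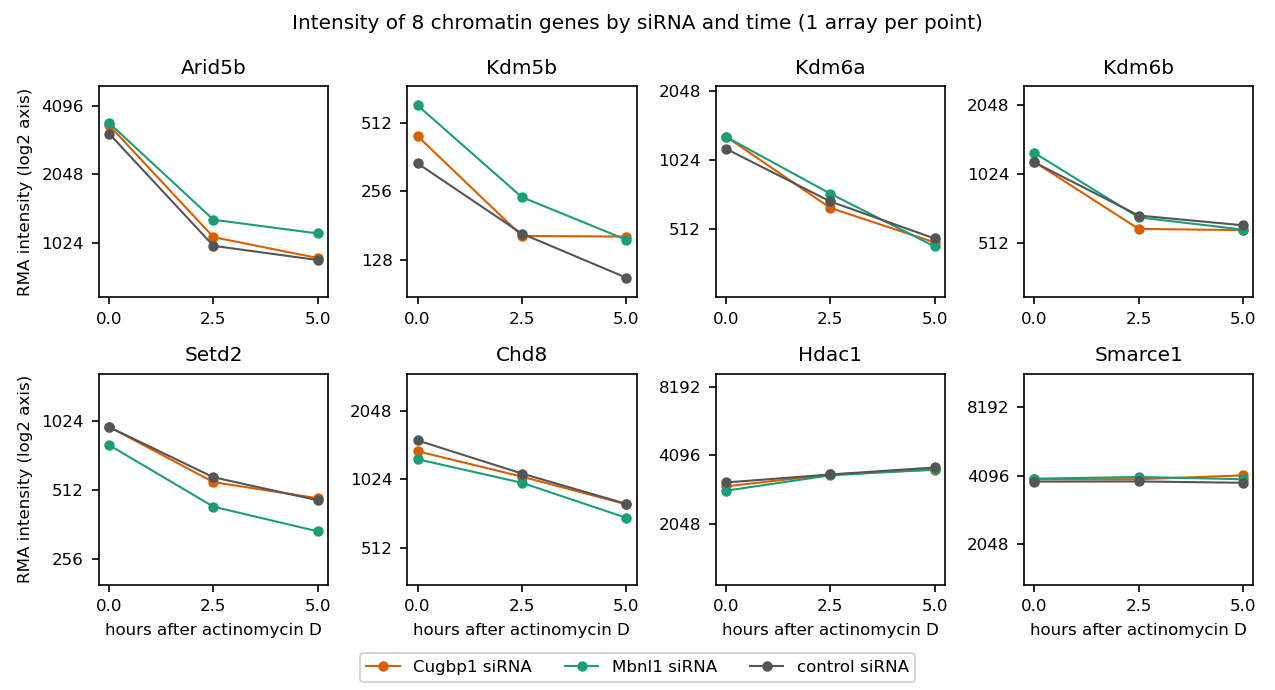
RMA intensity (vertical axis, log2 spacing, the same span in every panel) against hours after actinomycin D (horizontal axis) for 8 genes, 1 array per point and 1 line per siRNA. Arid5b, Kdm5b and Kdm6b drop mainly before 2.5 h. Arid5b, Kdm5b, Kdm6a and Chd8 were also called as lower from 2.5 to 5 h, though Kdm5b stays level there under Cugbp1 siRNA. That call was lost without any 1 of 5 arrays for Arid5b and any 1 of 6 for Kdm5b. Hdac1 rises by 0.26 log2 (0.02 with equal ribosomal protein medians) and Smarce1 stays level.

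Setd2, which writes trimethylated H3K36 behind RNA polymerase II, had 967, 553 and 470 units at 0, 2.5 and 5 h under Cugbp1 siRNA, 804, 432 and 337 under Mbnl1 siRNA and 964, 581 and 461 under control siRNA. It fell 2.17-fold at 5 h (−1.12 ± 0.05 log2, adjusted p = 8.27e-07). A further probe set of the gene gave −1.05. Tet3, which oxidises methylcytosine, fell by 1.05 ± 0.08 (adjusted p = 1.28e-05), and its other probe set gave −0.27, so the size differed between probe sets. Kdm3a, a demethylase of H3K9 induced in hypoxia, fell by 1.03 ± 0.07. The change of Arid4a, which binds the retinoblastoma protein, was −0.88 ± 0.06.

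Chd7, a remodeller known for acting at enhancers, was covered by 30 probe sets, of which 29 passed the filter. All 29 fell at 5 h, between −1.59 and −0.29 log2 with a median of −1.11, and 28 fell at 2.5 h. The probe sets are parts of 1 gene on the same arrays and are not replicates. The brightest of them, used elsewhere here, had 1545, 894 and 803 units under Cugbp1 siRNA, 1748, 1032 and 760 under Mbnl1 siRNA and 1599, 1004 and 830 under control siRNA. Across the 29 probe sets the signed log2 change had a Pearson r of 0.29 and a Spearman rho of 0.28 with mean log2 intensity. The probe sets share arrays, and this relation was not tested. The 10 dimmest had a median of −1.11 and the 10 brightest −1.06.

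**Figure D3:**
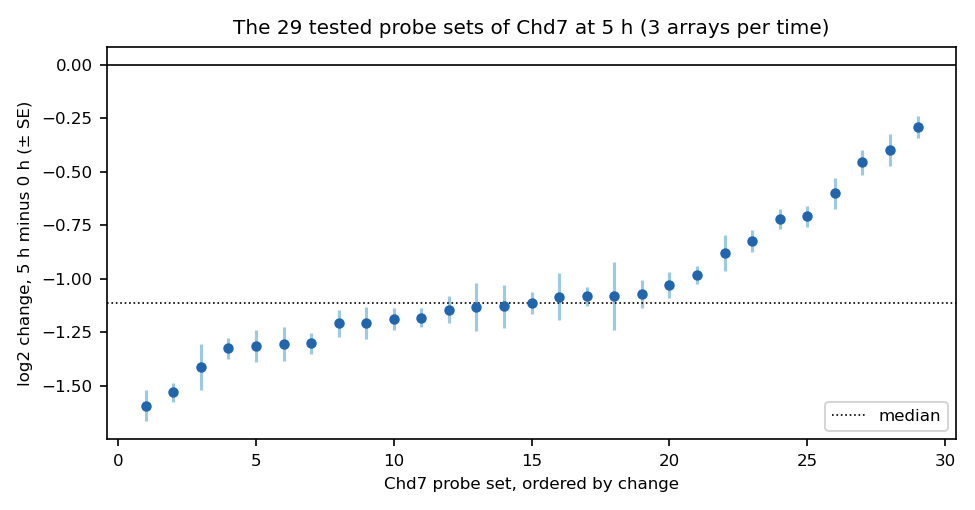
Log2 change from 0 to 5 h (vertical axis) of the 29 tested probe sets of Chd7, ordered by size (horizontal axis); bars are SE over 3 arrays per time and the dotted line is the median of −1.11. Every probe set lies below 0, and the range from −1.59 to −0.29 shows how far probe sets of 1 gene differ.

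Other falls came at a steadier pace. Kat7, the acetyltransferase of the HBO1 complex that marks H3K14, had 3986, 2881 and 2223 units at 0, 2.5 and 5 h under Cugbp1 siRNA, 3702, 2717 and 2043 under Mbnl1 siRNA and 3907, 2813 and 2111 under control siRNA. Its 3 arms lay close together, and the change was −0.46 ± 0.03 at 2.5 h and −0.40 ± 0.03 from then to 5 h. Chd8, a remodeller that binds beta-catenin, fell by 0.85 ± 0.04 at 5 h, of which −0.45 ± 0.04 came after 2.5 h. Over the 46 genes that fell at 5 h, 36 were called as lower at 2.5 h and 24 as lower at 5 h than at 2.5 h. Both calls were made for 23, and 13 were called at 2.5 h with no call afterwards. These counts within the 46 were not made for all genes that fell, so they cannot be read as particular to chromatin genes. Among all 74 genes 36 were lower and 9 higher at 2.5 h, against 24.2% and 23.1% of all genes tested. From 2.5 to 5 h 24 were lower and 3 higher, against 17.0% and 4.47% of all genes. With equal ribosomal protein medians 43 were lower and 0 higher at 2.5 h (32.8% and 2.41% of all genes), and 49 and 0 from 2.5 to 5 h (39.9% and 0.0912%).

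Within SWI/SNF, the remodeller that carries the ATPase Smarca4, the ARID subunits fell and the core subunits Smarce1 and Smarcb1 were not called. Arid1a, the signature subunit of the BAF form, had 1875, 1277 and 925 units at 0, 2.5 and 5 h under Cugbp1 siRNA, 1648, 1277 and 893 under Mbnl1 siRNA and 1949, 1290 and 961 under control siRNA. It fell by 0.97 ± 0.05 log2 at 5 h (adjusted p = 1.38e-06). Its paralogue Arid1b fell by 0.42 ± 0.05 (adjusted p = 0.000115), and Arid2, of the PBAF form, fell by 0.70 ± 0.04. Smarcd1, one of 3 alternative BAF60 subunits, fell by 0.23 ± 0.05.

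The core subunits Smarce1 and Smarcb1 changed by 0.01 ± 0.04 and −0.01 ± 0.04 at 5 h. Smarce1 had 3949, 3949 and 4105 units under Cugbp1 siRNA, 3971, 4040 and 3949 under Mbnl1 siRNA and 3855, 3862 and 3810 under control siRNA, so that its 9 arrays lay within a narrow span. The 3 probe sets of Smarce1 gave changes from −0.008 to 0.010. With equal ribosomal protein medians the changes were −0.22 for Smarce1 and −0.24 for Smarcb1, both called. Smarca4 rose by 0.09 ± 0.03 (adjusted p = 0.0477), a call lost without any 1 of the 9 arrays and turned to −0.15 with equal ribosomal protein medians. Smarcc2, a scaffold subunit, rose by 0.30 ± 0.04 (0.06 and not called with equal ribosomal protein medians).

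The genes that rose relative to the rest did so by small amounts. Hdac1, the class I deacetylase of the NuRD and Sin3 complexes, had 2999, 3382 and 3543 units at 0, 2.5 and 5 h under Cugbp1 siRNA, 2872, 3352 and 3563 under Mbnl1 siRNA and 3120, 3382 and 3629 under control siRNA. The 0 h array was the lowest in each arm. The change at 5 h was 0.26 ± 0.04 (adjusted p = 0.000461), its second probe set gave 0.27, and with equal ribosomal protein medians it was 0.02 (adjusted p = 0.701). Hdac2, its partner in those complexes, changed by 0.05 ± 0.04 (adjusted p = 0.319), or −0.19 with equal ribosomal protein medians. The largest rise was that of Kdm1b, a demethylase of H3K4, at 0.31 ± 0.04, or 0.07 with equal ribosomal protein medians. Chd3, a NuRD ATPase, rose by 0.28 ± 0.03 and Kat2b, an acetyltransferase that works with MyoD, by 0.26 ± 0.04; with equal ribosomal protein medians these were 0.05 and 0.02, with no call.

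The levels of 37 of the 74 genes differed between Mbnl1 siRNA and control siRNA, and those of 9 between Cugbp1 siRNA and control siRNA; both comparisons use the same control arrays. Under Mbnl1 siRNA 30 of 74 genes were lower and 7 higher than under control siRNA, against 31.0% and 24.0% of all genes tested. The lower share was 40.5% and the higher share 9.46%. The median difference was −0.08 log2 for the 74 genes and −0.02 for all genes. Each of these 37 genes went the same way at all 3 times, which a call made against the variation of siRNA with time favours. Leaving out each array in turn kept 20 of the 30 lower calls and 5 of the 7 higher ones throughout. Equal ribosomal protein medians kept 26 and 6, which were also the counts on that scale (27.6% and 21.6% of all genes). By family, the lower calls were 4 of 5 DNA methylation enzymes, 7 of 14 SWI/SNF and other Smarc genes, 4 of 9 methyltransferases, 6 of 16 demethylases, 3 of 8 acetyltransferases, 2 of 9 deacetylases, 2 of 8 CHD remodellers and 2 of 5 other ARID proteins.

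A list of 30 genes of DNA replication and the cell cycle, 28 of them tested, was set beside these results. All 28 were lower under Mbnl1 siRNA (median −0.41 log2), against 31.0% of all genes tested (median −0.02). Their median intensities were 1244, 1332 and 1336 at 0, 2.5 and 5 h under Mbnl1 siRNA, 1704, 1683 and 1699 under Cugbp1 siRNA, and 1704, 1669 and 1740 under control siRNA. The part of this difference in the chromatin results was not tested.

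The methylcytosine oxidases Tet3 and Tet1 were among the largest declines under Mbnl1 siRNA. Tet3 had 662, 346 and 276 units at 0, 2.5 and 5 h under Mbnl1 siRNA and 998, 564 and 491 under control siRNA. It was lower at every time, although the arms overlapped across times. The difference was 1.64-fold (−0.71 ± 0.08 log2, SE, 3 arrays per siRNA, adjusted p = 0.000172), and −0.24 on its other probe set. Tet1, a further methylcytosine oxidase, had 345, 294 and 300 units under Mbnl1 siRNA and 446, 451 and 480 under control siRNA. Every Mbnl1 siRNA array lay below every control array, and the difference was −0.56 ± 0.06 (adjusted p = 0.000174). Tet2 was lower (−0.23 ± 0.04.) Dnmt1, the maintenance methyltransferase that acts behind the replication fork, was lower (−0.14 ± 0.04, adjusted p = 0.0151), a call lost without the 0 h control array or the 5 h Mbnl1 siRNA array. The de novo methyltransferase Dnmt3a differed by 0.01 ± 0.03 (adjusted p = 0.737).

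Kdm8, a JmjC domain protein described as a demethylase and hydroxylase, had 186, 156 and 140 units under Mbnl1 siRNA and 293, 255 and 236 under control siRNA at 0, 2.5 and 5 h. The arms did not overlap, and the difference was −0.71 ± 0.04 (adjusted p = 5.66e-06) with a mean of 7.32 under Mbnl1 siRNA, just under the filter value. Smarcd3, the BAF60c subunit known from muscle and heart, had 648, 626 and 691 units under Mbnl1 siRNA and 877, 952 and 911 under control siRNA. This was −0.48 ± 0.06 (adjusted p = 0.000287), again with no overlap. Its relatives differed less: Smarcd2 was lower (−0.21 ± 0.06), a call lost without the 2.5 or 5 h control array or the 5 h Mbnl1 siRNA array, and Smarcd1 differed by −0.09 ± 0.05 with no call.

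Several methyltransferases were lower as well. Setd7, which methylates H3K4 and other proteins, had 839, 726 and 802 units under Mbnl1 siRNA and 1003, 1044 and 1201 under control siRNA (−0.46 ± 0.07, adjusted p = 0.00122). Setd6, which methylates RelA, was lower (−0.35 ± 0.04), as was Setd2 (−0.38 ± 0.05). Kdm7a, a demethylase of H3K9 and H3K27, was lower (−0.36 ± 0.05), as was Smarca5, the ISWI ATPase (−0.35 ± 0.04). Among class II deacetylases, Hdac4 was lower (−0.21 ± 0.06), a call lost without the 5 h control array, while Hdac5 was higher by 0.25 ± 0.04 (adjusted p = 0.00121). Both are partners of Mef2 in muscle. Hdac7 differed by −0.06 ± 0.04 with no call.

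**Figure D4:**
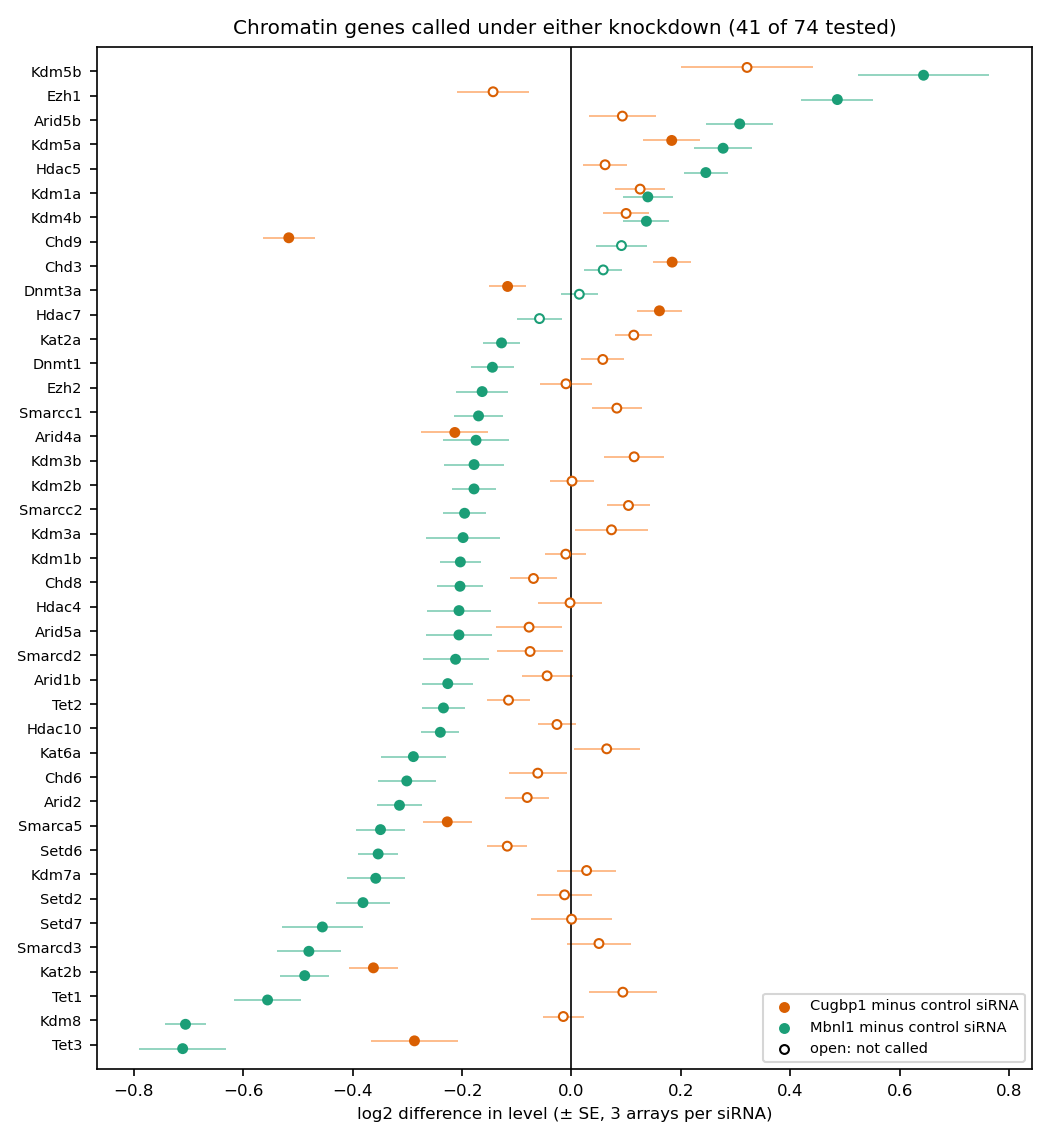
Log2 difference in level (horizontal axis) of Cugbp1 siRNA (orange) and Mbnl1 siRNA (green) minus control siRNA for the 41 genes called in either comparison (vertical axis); bars are SE over 3 arrays per siRNA and open points were not called. Both comparisons use the same control arrays; Kdm5b and Ezh1 lie highest and Kdm8 and Tet3 lowest under Mbnl1 siRNA, while Chd9 lies lowest under Cugbp1 siRNA.

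Ezh1 and Ezh2, the alternative catalytic subunits of Polycomb repressive complex 2, went opposite ways under Mbnl1 siRNA. Their promoters are shown because they are paralogues with opposite calls, as Hdac4 with Hdac5 and Arid5a with Arid5b are as well; the windows run from 250 bases before to 50 after the start in the RefSeq annotation of GRCm38.p6, at chr11:101226414-101226713 for Ezh1 and chr6:47594981-47595280 for Ezh2, both on the minus strand and written 5′ to 3′. Capitals mark CCAAT, the letters of the NF-Y box, and TTTNNCGC, a form of the E2F site, each searched on both strands (ATTGG and GCGNNAAA).
Ezh1: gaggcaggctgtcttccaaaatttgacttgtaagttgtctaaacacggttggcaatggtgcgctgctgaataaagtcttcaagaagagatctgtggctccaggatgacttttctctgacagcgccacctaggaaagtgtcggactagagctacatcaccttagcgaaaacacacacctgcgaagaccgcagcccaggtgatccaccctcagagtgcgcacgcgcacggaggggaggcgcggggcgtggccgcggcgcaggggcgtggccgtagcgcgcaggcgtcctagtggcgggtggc
Ezh2: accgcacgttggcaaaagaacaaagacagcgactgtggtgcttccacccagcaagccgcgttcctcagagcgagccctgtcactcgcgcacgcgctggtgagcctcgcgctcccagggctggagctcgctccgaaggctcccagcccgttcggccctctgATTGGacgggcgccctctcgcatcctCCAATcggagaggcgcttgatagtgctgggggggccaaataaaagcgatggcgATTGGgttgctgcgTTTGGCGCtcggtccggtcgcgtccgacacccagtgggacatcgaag
The Ezh2 window held 3 CCAAT matches and 1 TTTNNCGC match, and the Ezh1 window held 0 of each. At least 1 match to CCAAT occurred in 37.4% and to TTTNNCGC in 5.17% of 32851 mouse promoters of the same length. In 96 promoters of 69 of the chromatin genes the shares were 36.5% and 5.21%. Most promoters thus held no match to either, and promoters with 3 matches were not counted. CpG dinucleotides numbered 23 in the Ezh1 window and 31 in that of Ezh2.

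Ezh1 had 1035, 909 and 734 units at 0, 2.5 and 5 h under Mbnl1 siRNA, 633, 564 and 523 under Cugbp1 siRNA and 674, 610 and 612 under control siRNA. Every Mbnl1 siRNA array lay above every other array. The difference from control was 0.49 ± 0.07 log2 (1.40-fold, adjusted p = 0.000467). Ezh2 had 3376, 3208 and 2900 units under Mbnl1 siRNA, 3795, 3514 and 3238 under Cugbp1 siRNA and 4025, 3639 and 3010 under control siRNA. It was lower than control at each time, with a difference of −0.16 ± 0.05 (adjusted p = 0.0189), a call lost without the 0 or 2.5 h array of either arm. Both genes fell at 5 h of actinomycin D, with changes of −0.30 ± 0.07 for Ezh1 and −0.29 ± 0.05 for Ezh2.

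The other increases under Mbnl1 siRNA were few. Kdm5b was higher at 0, 2.5 and 5 h, with a difference of 0.64 ± 0.12 (1.56-fold, adjusted p = 0.0025), in arms that overlapped across times. Kdm5a, a related H3K4 demethylase, had 616, 592 and 514 units under Mbnl1 siRNA and 502, 494 and 425 under control siRNA, a difference of 0.28 ± 0.05 (adjusted p = 0.00264). Arid5b was higher by 0.31 ± 0.06 (adjusted p = 0.00338). Its relative Arid5a was lower (−0.21 ± 0.06, adjusted p = 0.0198), a call lost without the 0 or 5 h array of either arm. The histone demethylases Kdm4b and Kdm1a were each higher by 0.14. The call of Kdm4b was lost without the 0 or 2.5 h array of either arm, and that of Kdm1a without the 0 or 5 h control array or any 1 of the Mbnl1 siRNA arrays.

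**Figure D5:**
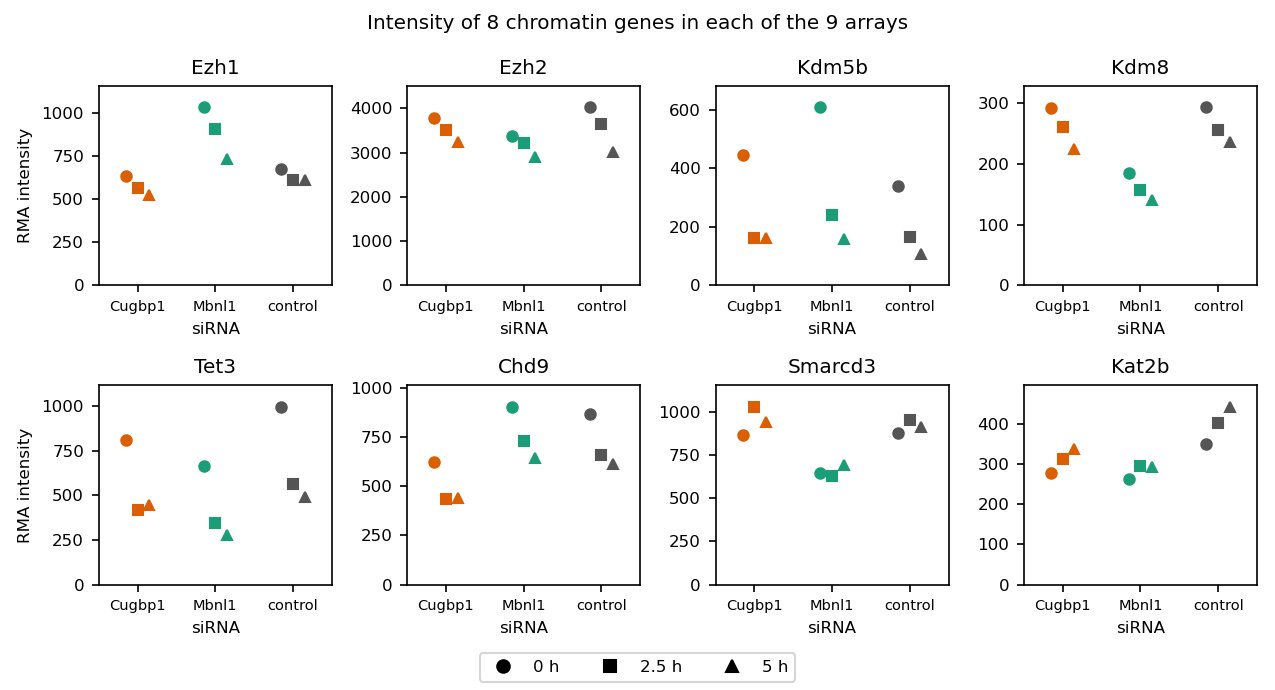
RMA intensity (vertical axis, from 0) of 8 genes in each of the 9 arrays, grouped by siRNA (horizontal axis), with circles for 0 h, squares for 2.5 h and triangles for 5 h of actinomycin D. The Mbnl1 siRNA arrays of Ezh1 lie above all control arrays and those of Kdm8, Smarcd3 and Kat2b below them, while those of Ezh2, Kdm5b and Tet3 overlap with the controls across times.

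Under Cugbp1 siRNA 6 of 74 genes were lower and 3 higher, against 8.67% and 10.5% of all genes tested. Chd9, a CHD remodeller, had 624, 436 and 439 units at 0, 2.5 and 5 h under Cugbp1 siRNA, 904, 730 and 640 under Mbnl1 siRNA and 868, 658 and 611 under control siRNA. It was lower than control at each time, 1.43-fold overall (−0.52 ± 0.05 log2, adjusted p = 0.000529), and differed by 0.09 ± 0.05 with no call under Mbnl1 siRNA. The difference between the knockdowns was itself tested, at 0.61 ± 0.05 for Mbnl1 siRNA minus Cugbp1 siRNA (adjusted p = 2.89e-05). Kat2b had 278, 311 and 337 units under Cugbp1 siRNA, 263, 294 and 291 under Mbnl1 siRNA and 349, 401 and 442 under control siRNA. Every knockdown array lay below every control array, with differences of −0.36 ± 0.04 under Cugbp1 siRNA and −0.49 ± 0.04 under Mbnl1 siRNA.

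Chd9 and Kat2b kept their Cugbp1 siRNA call without each array in turn. The other calls under Cugbp1 siRNA did not. Smarca5 (−0.23 ± 0.04) and Chd3 (0.18 ± 0.03) each lost it without 2 of the 9 arrays taken singly, the 0 and 2.5 h control arrays for Smarca5 and the 2.5 h control and Cugbp1 siRNA arrays for Chd3. Tet3 (−0.29 ± 0.08) and Hdac7 (0.16 ± 0.04) lost it without any 1 of 6 arrays, Arid4a (−0.21 ± 0.06) and Kdm5a (0.18 ± 0.05) without any 1 of 7, and Dnmt3a (−0.12 ± 0.03) without any 1 of the 9. The other probe set of Tet3 gave −0.17 under Cugbp1 siRNA, with no call. With equal ribosomal protein medians 4 of the 6 lower calls and none of the higher ones were kept, and on that scale 4 genes were lower and 0 higher (7.22% and 5.29% of all genes). Kat2a, the paralogue of Kat2b, differed by 0.11 ± 0.03 under Cugbp1 siRNA (adjusted p = 0.0501) and by −0.13 ± 0.03 under Mbnl1 siRNA (adjusted p = 0.0125, a call lost without the 2.5 h Mbnl1 siRNA array and with equal ribosomal protein medians).

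Set directly against Cugbp1 siRNA, Mbnl1 siRNA gave 37 lower and 6 higher genes of 74, against 33.4% and 23.0% of all genes tested. With equal ribosomal protein medians these were 25 and 7 (26.5% and 22.8% of all genes). Kdm8 (−0.69 ± 0.04), Tet1 (−0.65 ± 0.06), Smarcd3 (−0.53 ± 0.06), Setd7 (−0.46 ± 0.07) and Tet3 (−0.42 ± 0.08) were the most negative, and Ezh1 (0.63 ± 0.07) and Chd9 the most positive. The other probe set of Tet3 gave −0.07 in this comparison, with no call. Kdm6a differed by 0.05 ± 0.07 with no call.

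The decay question asks whether the slope after actinomycin D differs between arms. No chromatin gene was called for a different slope under Cugbp1 siRNA or Mbnl1 siRNA by limma, against 0% of all genes for Cugbp1 siRNA and, for lower slopes under Mbnl1 siRNA, 0.0203%. Again no chromatin gene was called for either siRNA with equal ribosomal protein medians, while 2.88% of all genes had lower and 0.112% higher slopes under Mbnl1 siRNA. At an unadjusted p under 0.05 there were 6 of the 74 genes for Cugbp1 siRNA and 7 for Mbnl1 siRNA, and 1129 and 1361 of all 9864. In simulated data of this design, a slope difference of 0.1 log2 per h was recovered for 3 of 100 genes. One of 0.2 was recovered for 83 of 100. Differences of the smaller size would thus mostly be missed. The simulation had independent noise and planted changes, so it cannot show that real differences of 0.2 would be found. Over all genes, slope differences reached −0.279 per h under Cugbp1 siRNA and 0.257 under Mbnl1 siRNA, with no call in those directions. A positive slope difference means slower loss than with control siRNA. Among the 74 chromatin genes the highest were Smarcad1 and Arid4b. Smarcad1, a remodeller of DNA repair, had 0.08 ± 0.02 per h under Mbnl1 siRNA (adjusted p = 0.135). Arid4b, a Sin3 complex subunit, had 0.10 ± 0.03 per h under Cugbp1 siRNA (adjusted p = 0.326). The lowest were Ezh1 at −0.07 ± 0.02 per h under Mbnl1 siRNA (adjusted p = 0.204) and Kdm6a at −0.05 ± 0.03 under Cugbp1 siRNA (adjusted p = 0.557). Arid5b, the gene with the largest fall, kept 26.2% of its 0 h level at 5 h under Cugbp1 siRNA, 32.8% under Mbnl1 siRNA and 27.9% under control siRNA.

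Chromatin genes outside these name families were counted from a list of partners and further enzymes, 72 of 76 of them tested. At 5 h 44 had fallen and 13 risen (median −0.20 log2), against 32.8% and 35.6% of all genes tested. On the scale of equal ribosomal protein medians 57 had fallen and none risen, against 59.4% and 2.85% of all genes. Jarid2, a cofactor of Polycomb repressive complex 2, fell by 1.40 ± 0.08, and the corepressor scaffold Sin3a changed by −1.06 ± 0.05. Under Mbnl1 siRNA 35 were lower and 10 higher (median −0.12), against 31.0% and 24.0% of all genes. With equal ribosomal protein medians these were 31 and 9, against 27.6% and 21.6%. On the main scale Uhrf1, which brings Dnmt1 to replicating DNA, was lower (−0.78 ± 0.05), as was Hells, a remodeller needed for DNA methylation (−0.59 ± 0.05). Nsd1 (−0.77 ± 0.10), Phf19 (−0.70 ± 0.06) and Nsd2 (−0.67 ± 0.05) were lower too. Mbd1, listed as a partner in DNA methylation, was higher (0.41 ± 0.05). Gadd45b and Gadd45a, stress genes linked to DNA demethylation, were higher by 0.72 ± 0.09 and 0.58 ± 0.07. Under Cugbp1 siRNA 3 were lower and 6 higher, against 8.67% and 10.5% of all genes, and with equal ribosomal protein medians 1 was lower and 3 higher, against 7.22% and 5.29%.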

How the data were processed

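Total RNA of C2C12 cells, 9 samples, was hybridised to Affymetrix whole-transcript sense arrays, per the labels' protocols. The authors used RMA in Affymetrix Expression Console, per the submitters' processing notes (versions: not given in the sources used here). Judged by its values, the table deposited by the authors holds linear intensity, which was turned into log2 for this work. Of 35556 probe sets 21789 had 1 gene symbol, 1621 several and 12146 none in the platform annotation; those with 1 were used.

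The brightest probe set stood for a gene, and a gene was tested if its mean reached log2 7.38, an intensity of 167.1. The tests used lmFit and eBayes of limma 3.58.1 (R 4.3.3). A model of siRNA plus time, both categorical, gave levels and time changes on 4 residual degrees of freedom. Decay was fitted by adding an hourly slope for each knockdown arm, on 2. Benjamini-Hochberg adjustment ran over all 9864 genes. The number of arrays limits the precision. In simulated data level differences of 0.25 and 0.5 log2 under Mbnl1 siRNA were recovered for 54 and 97 of 100 genes, with 10 unchanged genes called. For the 5 h contrast these were 53 and 95 of 100, with 9.

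Alternatives were no filter on dim genes, the 65th percentile as the filter, equal ribosomal protein medians (52 genes), the mean of a gene's probe sets, log2 of intensity + 32, a prior following the mean level, time as a straight line, leaving out each array, and each probe set apart (chosen after seeing the data). Named genes were up to 10 largest called rises and falls of a comparison with the same sign in every array pair, the strongest member of each family, fixed paralogue groups and, where fewer than 3 were called, the 3 highest and lowest moderated t; others are named where a count or description singles them out, chosen after their values were seen. The members and lists were chosen with earlier results of these data known. Promoters are from RefSeq (GRCm38.p6).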

Additional observations from a re-analysis of the deposited data

How the results depend on the processing

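Counts of called chromatin genes kept within 1.5 times of the main count under most alternatives. Equal ribosomal protein medians left 0 higher calls under Cugbp1 siRNA (main 3), at 2.5 h (main 9), at 5 h (main 11) and from 2.5 to 5 h (main 3), and gave 49 lower calls from 2.5 to 5 h (main 24). Without a filter there were 1 higher and 3 lower calls under Cugbp1 siRNA (main 3 and 6) and 1 higher call from 2.5 to 5 h. The 65th percentile filter gave 5 higher calls under Cugbp1 siRNA, and a prior following the mean level gave 5 there and 5 from 2.5 to 5 h.

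Leaving out each array in turn gave 0 to 4 higher and 2 to 5 lower calls under Cugbp1 siRNA, 5 to 8 and 23 to 30 under Mbnl1 siRNA, 4 to 7 and 25 to 36 for Mbnl1 minus Cugbp1 siRNA, 4 to 9 and 34 to 38 at 2.5 h, 7 to 12 and 43 to 46 at 5 h, 0 to 4 and 16 to 27 from 2.5 to 5 h, and 0 for both slopes. Moves of more than 1.5 times were as follows. For higher calls under Cugbp1 siRNA the count was 0 without the 2.5 h control array and 1 without the 0 or 5 h control, 5 h Cugbp1 siRNA or 2.5 h Mbnl1 siRNA array. For lower calls there it was 2 without the 0 h control array and 3 without the 2.5 or 5 h control, 0 h Cugbp1 siRNA or 2.5 h Mbnl1 siRNA array. For higher calls at 2.5 h it was 4 without the 0 h control or 2.5 h Cugbp1 siRNA array and 5 without the 2.5 h control, 0 h Cugbp1 siRNA or 2.5 h Mbnl1 siRNA array. At 5 h it was 7 without the 0 or 5 h Cugbp1 siRNA array. From 2.5 to 5 h it was 0 without the 2.5 h Mbnl1 siRNA array and 1 without the 2.5 or 5 h array of control or Cugbp1 siRNA.

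Among 284 pairs of a named gene and a comparison, of which 136 were called, the sign turned in 50 with equal ribosomal protein medians. Of these, 39 were called on neither scale and 11 on at least one of the scales. Among these 11, Hdac10 was then −0.00073 at 2.5 h and Setd6 −0.0038. At 5 h Hdac10 was −0.044, Hdac2 −0.19, Hdac3 −0.014, Hdac5 −0.18, Hdac7 −0.16, Kat2a −0.15, Kdm7a −0.041, Setd6 −0.10 and Smarca4 −0.15. Signs also turned in 56 pairs without 1 array or another, in 2 with 32 added before log2 and in 1 with the mean of a gene's probe sets, each with no call in either fit. The shift of −0.23 in the median of all genes at 5 h is part of the ribosomal protein scaling. The model of siRNA plus time already compares siRNAs within each time and times within each siRNA, so no separate paired analysis was run. Dim genes limit the list: 13 members lay below the filter and were not tested.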

Other observations

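Of the 87 genes, 13 were too dim for the test and are given as values. They are Arid3b, Arid3c, Chd5, the antisense transcript Dnmt3aos, Dnmt3b, Dnmt3l, Hdac11, Hdac9, Kdm4d, Kdm5d, Setd4, Smarca1 and Smarca2. Hdac9, a class II deacetylase that represses Mef2, had 145, 171 and 164 units at 0, 2.5 and 5 h under Mbnl1 siRNA, 100, 125 and 111 under Cugbp1 siRNA and 124, 137 and 130 under control siRNA. Smarca2, the alternative SWI/SNF ATPase, had 85.4, 83.6 and 87.4 units under Mbnl1 siRNA and 78.7, 88.1 and 87.4 under control siRNA. The de novo methyltransferase Dnmt3b had 92.1, 109 and 102 units under Mbnl1 siRNA and 106, 106 and 118 under control siRNA.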
